A study of Mus musculus with 4 samples.

Results

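The 10 genes described here mark the epithelial or the mesenchymal state of a cell: Cdh1, Epcam, Krt8, Krt18, Cdh2, Vim, Zeb1, Zeb2, Snai1 and Twist1. They were chosen by symbol, each symbol had 1 row among the 55335 genes of the deposited table, and genes near 0 were kept. RNA-seq was made from 4 libraries of CT26, a chemically induced colon carcinoma line of the BALB/c mouse. The libraries titled CT26_102 and CT26_CTL carry the labels FOSL2-WT and PBS, and those titled CT26_102_R and CT26_CTL_R carry the labels FOSL2-KO and chemoradiotherapy. Genotype and treatment therefore change together with the suffix R and cannot be told apart. The labels do not say what the stem CT26_102 or the suffix R stands for, the design text speaks of knockdown cells, and no dose or time is given. All were grown in a medium the labels call 1640, with fetal bovine serum and antibiotics. Each title is 1 library, so every comparison set 2 libraries against 2, and nothing states that they came from separate cultures. The p-values thus measure only the spread between these libraries, which may be technical. In the main fit, with stem and suffix as terms, that spread is how far the suffix difference varied between the stems. It is moderated with the values of other genes.

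In an epithelial sheet, cells are held together by E-cadherin at adherens junctions and carry keratin filaments. In the epithelial-mesenchymal transition, transcription factors of the SNAI, ZEB and TWIST families repress E-cadherin and other epithelial genes, while N-cadherin and the filament protein vimentin come up and cells separate and move. The state is graded, and carcinoma lines can hold any mixture of both sets of genes. CT26 is commonly described as poorly differentiated. The submitters' labels name the same cells in 2 ways, as colon adenocarcinoma cells and, in the growth protocol, as mesenchymal cells.

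SNAI and ZEB proteins bind E-boxes with the core CACCTG, so the stretches before the start of 3 members that hold this core are shown, for a gene that was silent here (Epcam), a keratin gene that was expressed (Krt18) and the gene of a repressor (Snai1). The sequences are from RefSeq on GRCm38.p6, read 5′ to 3′ on the gene's strand, up to the first annotated base of the gene, with the core in capitals (CACCTG, or CAGGTG where it lies on the other strand).
Epcam, chr17:87635729-87635978, plus strand: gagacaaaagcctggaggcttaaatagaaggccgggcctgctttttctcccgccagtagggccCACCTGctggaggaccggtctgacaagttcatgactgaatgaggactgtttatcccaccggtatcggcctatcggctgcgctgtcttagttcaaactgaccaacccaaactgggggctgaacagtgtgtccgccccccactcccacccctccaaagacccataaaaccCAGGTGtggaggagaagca
Krt18, chr15:102027966-102028179, plus strand: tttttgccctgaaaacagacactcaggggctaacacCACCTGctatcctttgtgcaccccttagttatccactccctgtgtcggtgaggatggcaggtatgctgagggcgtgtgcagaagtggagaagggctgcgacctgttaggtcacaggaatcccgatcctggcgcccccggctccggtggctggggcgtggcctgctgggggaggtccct
Snai1, chr2:167537945-167538194, plus strand: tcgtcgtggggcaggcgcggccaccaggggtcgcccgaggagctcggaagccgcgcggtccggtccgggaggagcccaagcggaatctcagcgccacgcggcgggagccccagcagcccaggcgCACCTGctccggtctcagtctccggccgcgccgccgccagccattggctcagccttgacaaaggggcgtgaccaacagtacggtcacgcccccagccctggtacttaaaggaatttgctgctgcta

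Windows of 250 bases before a RefSeq start were read for 7 members: Epcam, Krt8, Krt18, Vim, Zeb2, Snai1 and Twist1. The core, searched on both strands, was in 4 of their 10 windows, against 17.2% of all 32851 windows in the table. Epcam had 2 matches, and Krt8, Krt18 and Snai1 had 1 each. The core was in no window of Vim, Twist1 or Zeb2, the last of which has 4 windows. The Vim window, the Krt8 match and all Zeb2 windows except the most upstream lie past the first annotated base of their genes. Some of the Zeb2 windows overlap each other, so the 10 windows are not separate units. The AP-1 motif TGACTCA, the kind of site that FOSL2 binds with a JUN partner, was also searched on both strands and does not overlap the E-box core. It was in 1 of the 10 windows, that of a downstream Zeb2 start, and in 4.46% of all windows. A match describes the letters only.

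Across the 4 libraries the mesenchymal genes were on and the epithelial adhesion genes were off. Values are FPKM, the fragment count of a gene divided by its length and by the library size, and wherever 4 values follow each other the order is CT26_102, CT26_102_R, CT26_CTL and CT26_CTL_R. The mean over the 4 libraries was 615 ± 126 FPKM for Vim, 48.3 ± 19.1 for Krt18, 23.7 ± 0.877 for Twist1, 13.4 ± 2.81 for Cdh2, 9.08 ± 2.64 for Snai1, 2.46 ± 0.243 for Zeb2, 2.45 ± 0.519 for Zeb1 and 1.92 ± 1.63 for Krt8 (SD over 4 libraries, which differ in stem and suffix). In this order the ranges of Vim, Krt18, Twist1 and Cdh2 did not overlap, whereas that of Snai1 overlapped Cdh2, and those of Zeb2, Zeb1 and Krt8 overlapped each other. Cdh1 and Epcam followed at or near 0.

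**Figure D1:**
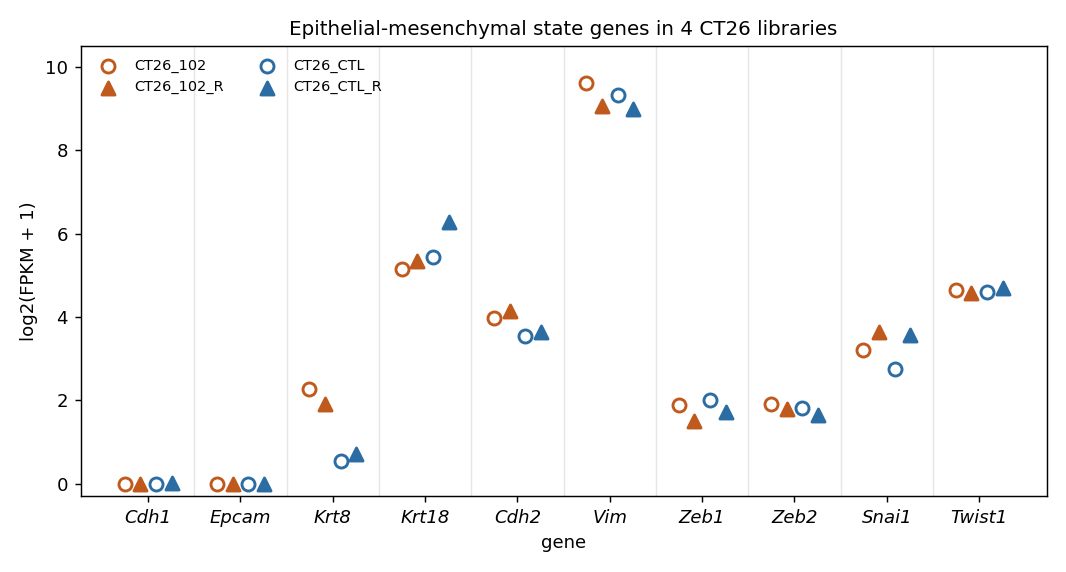
Level of the 10 genes as log2(FPKM + 1) in each of the 4 libraries, with orange for stem CT26_102, blue for CT26_CTL, open circles for no suffix and triangles for suffix R. Cdh1 and Epcam lie at 0, Vim lies highest at 8.98 to 9.61, and Krt8 is higher in both orange libraries than in both blue ones.

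The spacing of low values gave an estimated depth of 21600000 to 26400000 reads per library, and between 32.3% and 33.6% of values below 5 steps were whole within 0.02, so read numbers are approximate. The transcript of the labelled target did not follow the genotype labels: Fosl2 was at 9.35, 16.0, 12.7 and 19.2 FPKM, 1.71 and 1.51 times higher with suffix R within the stems (0.64 ± 0.13 log2, SE, adjusted p = 0.0444), so the genotype is given below only as labelled. Mitochondrial genes took 12.0%, 12.3%, 9.37% and 9.09% of total FPKM, so this share moved with the stem. Longer genes were relatively lower with suffix R, with median log2 differences from 0.15 in the shortest quintile of exonic length to -0.15 in the longest, and relatively higher in stem CT26_102, with medians from -0.16 to 0.27. Of 11955 genes tested with both divisions as terms, 905 were higher and 636 lower with suffix R (937 and 1011 with upper-quartile scaling). Of 7 leukocyte markers, 5 stayed under 1 FPKM in every library, among them Ptprc at 0.0880 or less and Cd3e listed at 0, while Csf1r was at 1.10, 1.998, 0.965 and 0.158 FPKM (named after its values were seen, passing in neither comparison) and Cd68 was higher. Their summed level was 9.85, 66.2, 29.5 and 86.6 FPKM, most of it Cd68. All 4 endothelial markers stayed under 1 FPKM, with Cdh5 listed at 0, and their sum moved with the stem at 0.369, 0.563, 0.0385 and 0.0868 FPKM, mostly Pecam1 at 0.369, 0.482, 0.00609 and 0.00566 in that order. The part of these markers in the results was not tested.

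Of the epithelial adhesion genes, Cdh1 (ENSMUSG00000000303, GRCm38 chromosome 8, 106603351 to 106670246), which encodes E-cadherin, was listed at 0 in 3 libraries and at 0.0202 FPKM in CT26_CTL_R. That value corresponds to about 1.99 reads and is under the 3 reads (0.0303 FPKM there) used here as the limit that a count of 0 allows. Epcam (ENSMUSG00000045394, chromosome 17, 87635979 to 87651129), which encodes a surface adhesion protein of most epithelia and carcinomas, was listed at 0 in all 4, which allows up to 0.0518 to 0.0632 FPKM. Neither gene entered a test, and a difference between the groups was not detectable at this depth. In bulk RNA, fewer cells that express a gene and less RNA per cell cannot be told apart. Limits and read numbers cover counting error only.

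Transcripts of 2 keratins were found in every library, at levels that differed widely between them. Krt8 (ENSMUSG00000049382, chromosome 15, 101996698 to 102004482) and Krt18 (ENSMUSG00000023043, chromosome 15, 102028180 to 102032027) are neighbours on the chromosome, and their proteins pair to form the filament of simple epithelia. Krt18 was at 34.7, 39.6, 42.5 and 76.5 FPKM and stood at rank 741 to 1406 among all genes. CT26_CTL_R was well above the other three, which lay close together. Krt8 was at 3.82, 2.74, 0.461 and 0.652 FPKM, about 162, 129, 23.8 and 27.6 reads. Both libraries of stem CT26_102 lay above both of CT26_CTL, with no overlap. Per length, Krt18 transcript exceeded Krt8 by 9.07 and 14.5 times in stem CT26_102 and by 92.1 and 117 times in stem CT26_CTL. How reads were split between Krt8 and its pseudogene Krt8-ps is uncertain; Krt8-ps was at 0.142, 0.173, 0.0401 and 0.0490 FPKM, far below Krt8 in each library.

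Among the mesenchymal structural genes, Vim (ENSMUSG00000026728, chromosome 2, 13573927 to 13582826), the filament protein of mesenchymal cells, was at 782, 535, 639.9 and 503 FPKM. It ranked between 56 and 104 among all genes, and both libraries with suffix R were below both without it. Per length, Vim transcript exceeded Krt18 by 22.6, 13.5, 15.1 and 6.58 times. Cdh2 (ENSMUSG00000024304, chromosome 18, 16588877 to 16809246), which encodes N-cadherin, was at 14.7, 16.6, 10.7 and 11.4 FPKM, higher in both libraries of stem CT26_102 than in both of CT26_CTL. N-cadherin was thus the classical cadherin transcript of the pair in every library, with E-cadherin at or under the limit.

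All 4 transcription factor genes were detected in every library. Twist1 (ENSMUSG00000035799, chromosome 12, 33957671 to 33959829), a basic helix-loop-helix factor, was the most abundant of them at 24.0, 22.9, 23.1 and 24.8 FPKM. These values differed little, with a span of 0.11 on the log2 scale. Snai1 (ENSMUSG00000042821, chromosome 2, 167538195 to 167542814), the zinc finger repressor SNAIL, was at 8.30, 11.6, 5.71 and 10.8 FPKM. Both libraries with suffix R lay above both without it. Zeb1 (ENSMUSG00000024238, chromosome 18, 5591860 to 5775467) and Zeb2 (ENSMUSG00000026872, chromosome 2, 44983632 to 45117395) encode related zinc finger repressors. Zeb1 was at 2.69, 1.83, 3.02 and 2.27 FPKM and Zeb2 at 2.73, 2.45, 2.52 and 2.15 FPKM, both lower in each library with suffix R than in each without it. Zeb2 shares 653 of its 19942 exonic bases with the opposite-strand gene Zeb2os, at 0.711, 1.17, 1.26 and 1.57 FPKM. Since no source used here states whether strand was used in counting, reads over these shared bases cannot be told apart. Zeb1 and Krt8 share 198 and 101 exonic bases with opposite-strand genes that were near 0, Gm10125 and Gm36026.

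With suffix R against none, the labelled difference of genotype and treatment, Vim fell and no other member passed the test. Of the 10 genes, 8 passed the filter on low values (1 FPKM or more in 2 libraries or more). Of these 8, 0 rose, 1 fell and 7 did not pass at an adjusted p of 0.05 (limma with both divisions as terms, Benjamini-Hochberg over all 11955 genes). The share of 12.5% was close to the 12.9% of all genes tested, of which 7.57% were higher and 5.32% lower. Counting Vim, 3 of the 8 had an unadjusted p under 0.05 in the same limma fit, beside 4315 of all 11955 genes. Vim was 0.684 and 0.786 times its partner's FPKM within the stems, a log2 difference of -0.45 ± 0.09 (SE, 2 libraries a side, adjusted p = 0.0437). This call is marginal: the adjusted p was 0.0581 with median-of-ratios scaling, 0.0837 with a filter of 0.1 FPKM, 0.0928 without the mean-variance trend, 0.226 without a filter and 0.512 with the suffix as the only term. With the suffix alone, 0 of the 8 members passed in limma and 0 had an unadjusted p under 0.05, where 0.00836% of all genes passed.

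Snai1 was 1.39 and 1.89 times its partner within the stems (0.62 ± 0.15 log2, adjusted p = 0.0603), and Krt18 1.14 and 1.80 times (0.51 ± 0.18, adjusted p = 0.119). The larger ratio of both genes was in stem CT26_CTL, and with 1 library per stem and suffix the difference between the stems could not be tested. Zeb1 was 0.678 and 0.751 times its partner (-0.34 ± 0.14, adjusted p = 0.157). With the trend on gene length removed, its difference was -0.19, and the part of length in it was not tested. Zeb2 had a difference of -0.14 ± 0.14 (adjusted p = 0.515), which was 0.10 with the length trend removed. Cdh2 (0.12 ± 0.13, adjusted p = 0.527), Twist1 (0.02 ± 0.13, adjusted p = 0.931) and Krt8 (-0.10 ± 0.19, adjusted p = 0.748) lay within 1 SE of 0. The groups did not overlap for 4 of 8 members, Vim, Zeb1, Zeb2 and Snai1, which is 50.0% against 43.3% of all genes tested. The median difference of the 8 was -0.039, beside 0.0042 over all genes.

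**Figure D2:**
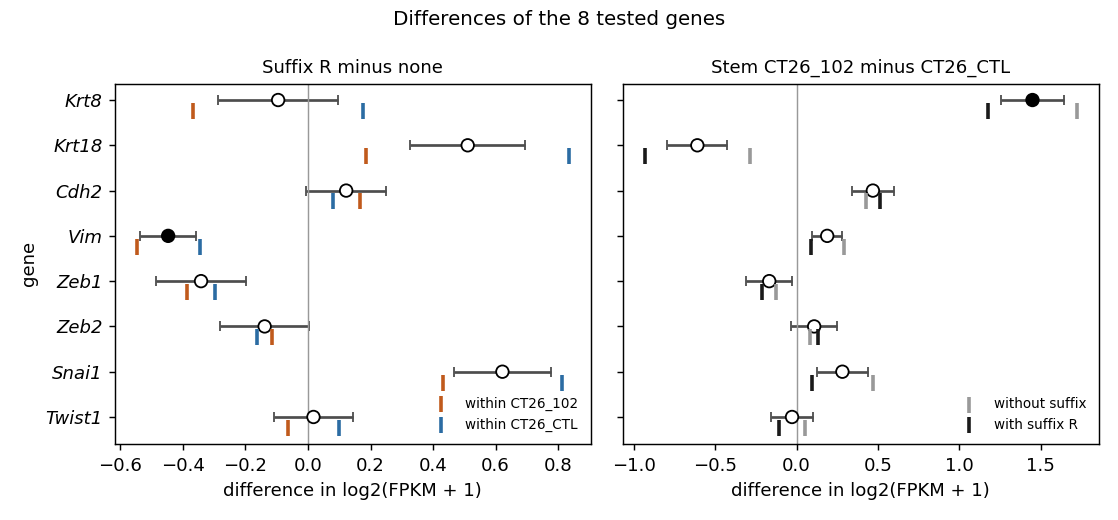
Differences in log2(FPKM + 1) of the 8 tested genes, left for suffix R minus none and right for stem CT26_102 minus CT26_CTL, as circles with bars of 1 SE, filled where the adjusted p was under 0.05. Small ticks give the difference in each matched pair of libraries, and only Vim on the left and Krt8 on the right are filled. Krt8 passed the filter on low values only through stem CT26_102.

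Between the title stems, Krt8 was higher in CT26_102 and no other member passed. Of the 8 tested members, 1 was higher, 0 were lower and 7 did not pass. Counting Krt8, 3 of the 8 had an unadjusted p under 0.05 in the same limma fit, beside 4830 of all 11955 genes. The passing share of 12.5% stands beside 21.9% of all genes tested, 12.5% higher and 9.44% lower. That is 1494 genes higher and 1129 lower, a split that turned to 1189 and 1312 with median-of-ratios scaling. Krt8 in stem CT26_102 was 8.29 times CT26_CTL without the suffix and 4.19 times with it. On the log2(FPKM + 1) scale, which understates folds of low genes, its difference was 1.45 ± 0.19 (SE, 2 libraries a side, adjusted p = 0.0142), and with 0.1 added in place of 1 it was 2.36. Krt8 passed the filter of 1 FPKM only through the libraries of stem CT26_102, where it was higher. Its call is therefore not independent of the filter. The adjusted p of Krt8 was 0.107 without a filter and 0.108 with the stem as the only term. With the stem alone, 0 of the 8 members passed in limma and 1, Krt8, had an unadjusted p under 0.05, where 0.284% of all genes passed, 0.234% higher and 0.0502% lower.

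Krt18 was at 0.816 and 0.517 times the CT26_CTL level, opposite in sign to its partner Krt8 (-0.61 ± 0.18 log2, adjusted p = 0.0728). Cdh2 was at 1.38 and 1.46 times (0.47 ± 0.13, adjusted p = 0.0589), or 0.25 with the length trend removed. The remaining differences were 0.28 ± 0.15 for Snai1 (adjusted p = 0.233), 0.19 ± 0.09 for Vim (adjusted p = 0.186), -0.17 ± 0.14 for Zeb1 (adjusted p = 0.422), 0.11 ± 0.14 for Zeb2 (adjusted p = 0.601) and -0.03 ± 0.13 for Twist1 (adjusted p = 0.892). With the length trend removed, Zeb1 was at -0.44 and Zeb2 at -0.30, so the sign of Zeb2 depended on it. The stems did not overlap for 3 of 8 members, Krt8, Krt18 and Cdh2, which is 37.5% against 48.9% of all genes. Krt8 is among the 8 only through its values in stem CT26_102. The median difference of the 8 was 0.15, beside 0.05 over all genes.

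**Figure D3:**
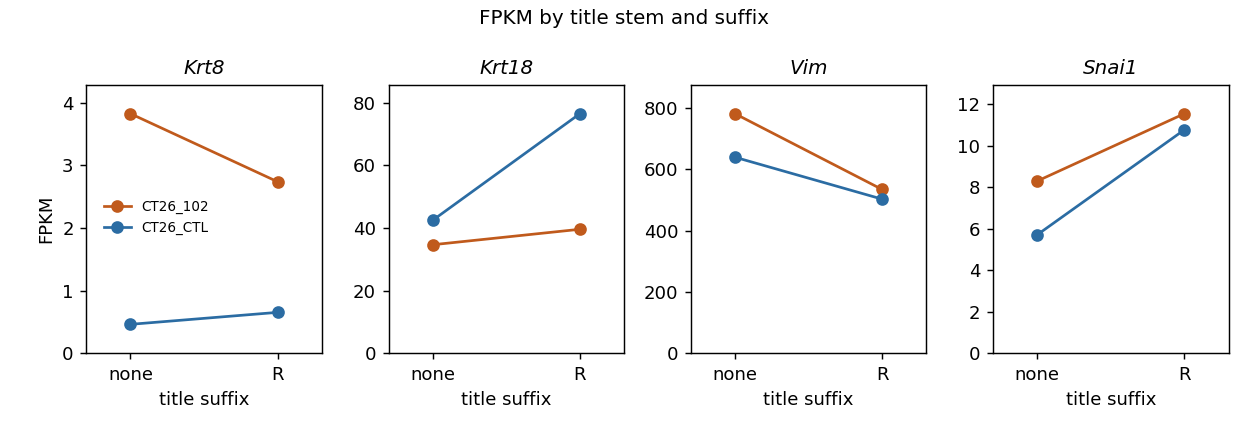
FPKM of Krt8, Krt18, Vim and Snai1 without and with suffix R, each point 1 library and each line joining the libraries of a stem, with every axis starting at 0. Vim is lower and Snai1 higher with suffix R in both stems, whereas Krt8 goes from 3.82 to 2.74 in CT26_102 and from 0.461 to 0.652 in CT26_CTL.

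By distance between centred log2(FPKM + 1) values over the 4 libraries, the genes most alike to Krt8 were Plac1 (root mean square distance 0.0245, at 2.54, 1.66, 0.0541 and 0.158 FPKM) and Col4a1 (0.0655, at 65.2, 57.2, 20.3 and 23.6). Most alike to Krt18 were CT571245.5 (0.0463, at 0.848, 1.08, 1.39 and 2.92) and Ube2l3 (0.0596, at 4.71, 5.60, 5.35 and 11.2). This likeness rests on 4 libraries and on a scale that understates folds of low genes. As FPKM ratios between the stems, Krt8, Plac1 and Col4a1 differ widely. The other members spanned less than 1 log2 unit and were not matched.

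Around the members, most other epithelial genes were near 0. Of 30 epithelial junction, surface and polarity genes, 25 stayed under 1 FPKM and 20 under 0.1 FPKM in every library, and 2 were tested. With suffix R 0 of these passed in limma (1 at an unadjusted p under 0.05), and between stems 1 was higher in CT26_102 and 0 lower (2 at an unadjusted p under 0.05). Over all genes tested, 12.9% passed for the suffix and 21.9% for the stem. Lgals4, which encodes a galectin of the gut epithelium and is named after its values were seen, was at 1.23, 2.37, 0.767 and 0.814 FPKM and passed in neither comparison. It was tested only through its values in stem CT26_102. Of 8 other keratins, 2 were at 10 FPKM or more in every library: Krt20, a keratin of differentiated intestinal epithelium, at 27.3, 27.4, 24.5 and 36.8, and Krt80, named after its values were seen, at 10.2, 19.8, 14.8 and 18.7. Of both, 0 passed in either comparison in limma, and 1 and 0 had an unadjusted p under 0.05 for suffix and stem. Of 14 epithelial regulators, 12 stayed under 1 FPKM, Cdx1, Cdx2, Ehf and Ovol2 were listed at 0 in all libraries, and Klf4, a zinc finger factor of epithelia and stem cells, was at 68.4, 60.04, 88.3 and 79.0 FPKM.

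In a list named for the cadherin-catenin complex, which N-cadherin also uses, most genes were expressed and differed between stems. The list also holds the junction scaffold genes Tjp1 and Afdn and the nectin genes Nectin2 and Nectin3. Ctnna2 and Nectin3 stayed under 1 FPKM in every library. Of 10, 8 were tested: 6 were higher in stem CT26_102 and 0 lower, beside 12.5% and 9.44% of all genes tested. At an unadjusted p under 0.05 in limma were 7, beside 4830 of all 11955 genes. With suffix R 1 rose and 2 fell, beside 7.57% and 5.32% of all genes. The list's median differences were 0.78 for the stem and -0.31 for the suffix, beside 0.05 and 0.0042 over all genes. In the 2 longest quintiles of exonic length, the stem medians of all genes were 0.13 and 0.27. Vcl, vinculin, which ties catenins to actin, was at 45.2, 21.8, 6.82 and 5.11 FPKM (2.23 ± 0.19 log2 between stems, adjusted p = 0.00733). Ctnna1, alpha-catenin, was at 64.7, 58.1, 42.3 and 33.8. Both genes that fell with suffix R encode junction scaffolds, Afdn at 14.8, 5.66, 5.74 and 2.92 FPKM (-1.01 ± 0.17, adjusted p = 0.0332) and Tjp1 at 31.5, 17.5, 13.8 and 8.23 (-0.75 ± 0.13, adjusted p = 0.0351). Jup, plakoglobin, rose from 6.16 to 12.5 and from 2.96 to 7.43 (1.003 ± 0.14, adjusted p = 0.0252) and is named after its values were seen. Vcl and Afdn have long transcripts, and with the length trend removed the stem difference of Vcl was 2.01 and the suffix difference of Afdn -0.86. All 6 passing stem differences were smaller with it removed, among them Tjp1 (1.07 to 0.86) and Ctnna1 (0.68 to 0.53). The part of length in them was not tested.

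**Figure D4:**
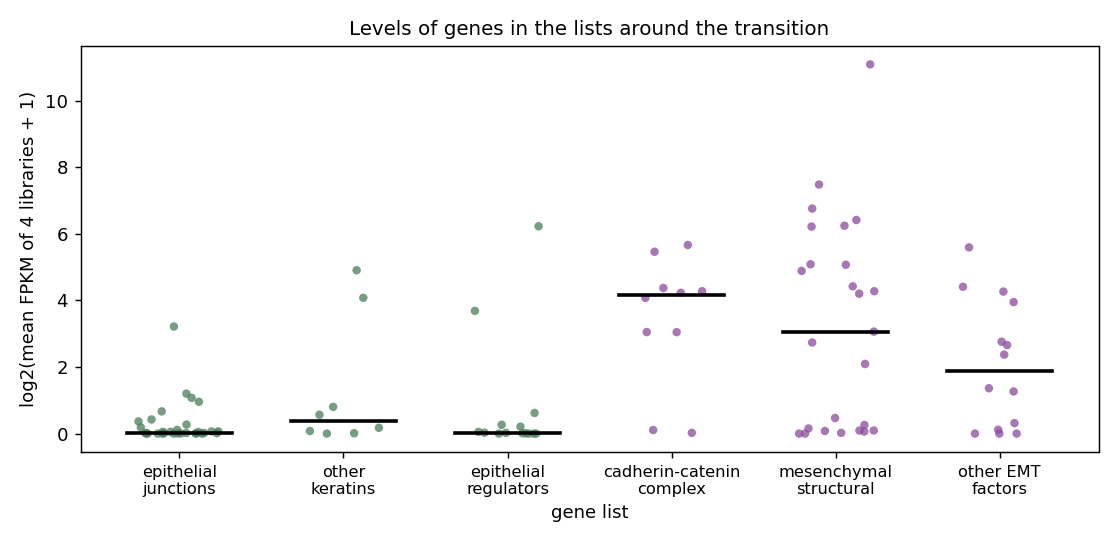
Levels as log2(mean FPKM of the 4 libraries + 1), each point 1 gene and each bar the list's median, with green for 3 epithelial lists and purple for 3 others. The medians of the epithelial junction genes (0.03) and epithelial regulators (0.02) lie near 0, and those of the cadherin-catenin list (4.15) and the mesenchymal structural genes (3.06) lie above.

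Of 25 mesenchymal structural and matrix genes, 15 were tested and 9 were at 10 FPKM or more in every library, while 9 stayed under 1. With suffix R 2 rose, 1 fell and 12 did not pass, beside 7.57% and 5.32% of all genes tested that rose and fell. Between stems 5 were higher in CT26_102 and 2 lower, beside 12.5% and 9.44% of all genes. The list's medians were -0.041 and 0.14. S100a4, a calcium-binding protein used as a mesenchymal marker, was the most abundant at 1534, 1734, 2255 and 3196 FPKM, and lower in stem CT26_102 (-0.72 ± 0.10 log2, adjusted p = 0.0145). Its difference was -0.53 with the length trend removed. Col3a1, a fibrillar collagen, was at 53.0, 19.8, 0.568 and 0.144 FPKM (4.65 ± 0.24 between stems, adjusted p = 0.00325), and Fbln5, an elastic fibre protein, at 14.9, 12.3, 0.974 and 1.31 (2.76 ± 0.17, adjusted p = 0.00408). Col3a1 passed the filter only through stem CT26_102, where it was higher. Its adjusted p in limma was 0.0818 without a filter and 0.0545 with the stem alone. With the length trend removed, the stem differences were 4.38 for Col3a1 and 2.59 for Fbln5. Des, the muscle filament protein desmin, rose with suffix R from 1.31 to 15.6 and from 0.965 to 4.75 (2.20 ± 0.32, adjusted p = 0.0278). The collagen gene Col1a2 fell from 108 to 49.6 and from 84.6 to 57.8 (-0.82 ± 0.17, adjusted p = 0.0436, or 0.0523 with median-of-ratios scaling and 0.0568 without the trend) and is named after its values were seen. With the length trend removed, its suffix difference was -0.65. The part of length in these differences was not tested. Fibroblast markers summed to between 6.30 and 11.6 FPKM, of which Pdgfrb made up 9.73, 6.35, 5.47 and 5.02, while Lum was listed at 0. Their part in the collagen and Vim values was not tested.

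Of 14 other transcription factors of the transition, 9 were tested. With suffix R 0 passed in limma (3 at an unadjusted p under 0.05), beside 12.9% of all genes tested. In stem CT26_102 1 was higher and 1 lower, beside 12.5% and 9.44% of all genes. The medians were -0.26 for the suffix and 0.45 for the stem. Sox9, a factor of intestinal progenitors, was lower at 1.15, 0.807, 6.85 and 7.91 FPKM (-2.08 ± 0.17 log2, adjusted p = 0.00620), and Tcf3, an E protein that partners TWIST, was higher at 21.1, 14.3, 12.1 and 10.3 (0.60 ± 0.14, adjusted p = 0.0452, or 0.0646 with median-of-ratios scaling and 0.0517 without the trend). The paralogs of members, named after their values were seen, were expressed as well: Snai2 at 11.3, 14.3, 29.3 and 18.1 and Twist2 at 28.9, 21.4, 12.8 and 17.98 FPKM. Neither passed between stems (adjusted p = 0.0776 and 0.0954). Hmga2, a chromatin protein of embryonic and tumour cells, was the most abundant of the list at 50.0, 48.9, 52.8 and 37.6 FPKM.

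Of 20 corepressors and turnover enzymes of SNAI, ZEB and TWIST, 19 were found and tested. With suffix R 1 rose and 4 fell, beside 7.57% and 5.32% of all genes tested. In stem CT26_102 4 were higher and 0 lower, beside 12.5% and 9.44% of all genes. At an unadjusted p under 0.05 in limma were 10 for the suffix and 8 for the stem, beside 4315 and 4830 of all 11955 genes. The list's medians were -0.30 and 0.25. Hdac1, a histone deacetylase that SNAIL recruits, was the most abundant at 34.3, 35.1, 28.3 and 29.7 FPKM. Fbxw7, the substrate receptor of a ubiquitin ligase, rose from 1.68 to 4.66 and from 1.15 to 2.86 (0.96 ± 0.15 log2, adjusted p = 0.0307). Suz12, a subunit of Polycomb repressive complex 2, fell from 8.92 to 4.23 and from 15.4 to 2.06 (-1.67 ± 0.36, adjusted p = 0.0475, or 0.0507 with median-of-ratios scaling, 0.0564 without the trend and 0.0562 with 0.1 added in place of 1). Rcor1, a corepressor that joins the demethylase LSD1, was at 13.4, 11.8, 7.72 and 5.42 (0.86 ± 0.14 between stems, adjusted p = 0.0213). Among 7 leukocyte markers only Cd68 was abundant, a lysosomal protein that is not restricted to leukocytes, and it rose from 8.49 to 63.9 and from 28.3 to 86.4 FPKM with suffix R (2.17 ± 0.29, adjusted p = 0.0252).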

How the data were processed

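RNA was measured in 4 CT26 libraries made with a SMARTer mRNA-seq kit, per the labels' protocols. The authors deposited FPKM per gene and library. For the aligner, counter and strand setting: not given in the sources used here. GRCm38 and mm10 are the builds listed, per the submitters' processing notes. Positions and exonic lengths came from GENCODE M21 (99.7% of identifiers matched).

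Values were tested as log2(FPKM + 1) without further scaling in R 4.3.3 with limma 3.58.1 (lmFit, eBayes with trend, two-sided, Benjamini-Hochberg). The fit held stem and suffix as terms, leaving 1 residual degree of freedom, to which limma's prior added 4.01. That residual is the stem-by-suffix interaction, not a spread between replicates of the same stem and suffix. An exact permutation test of 2 libraries against 2 has 0.333 as its smallest p and was left out. Reads were estimated as FPKM times exonic length over the commonest low step of each library. From each list the rule named at most 4 genes: the 3 with the largest passing difference and the most abundant. Beyond this rule, some genes were named after their values were seen, as marked, and some as examples at or near 0. Results of 2 list genes are not reported here, though the list counts hold them. For members spanning at least 1 log2 unit, the 2 most alike genes were named. Lats2 and Itgam had 2 rows each, of which the annotated one was used. The members and lists were chosen with earlier results of these data known. The alternatives tried were another pseudocount, 2 other filters, 2 scalings, the tested division alone, no trend, removal of the trend on length, and leaving out each library.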

Additional observations from a re-analysis of the deposited data

Results flagged for a closer look

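The suffix difference had opposite signs in the stems for 2 members, and this was not tested, since each stem and suffix is 1 library. Among all genes tested, 22.6% showed opposite signs. Krt8 differed by -0.37 on the log2(FPKM + 1) scale within CT26_102 and by 0.18 within CT26_CTL, a gap of -0.55. Twist1 differed by -0.06 and 0.10, a gap of -0.16, and its 4 values span little. Of the other genes named that were tested, the same held for 7: Fbln5 (gap -0.49), Snai2 (0.32 and -0.66, gap 0.99), Twist2 (-0.42 and 0.46, gap -0.88), Sox9 (gap -0.44), Csf1r (0.52 and -0.76, gap 1.28), Plac1 (gap -0.55) and Col4a1 (gap -0.39). Plac1 and Col4a1 were picked for their likeness to Krt8, so their signs are no separate result. In both Snai2 and Twist2 the stems were closer together with suffix R than without it, as also in Krt8, Fbln5, Plac1 and Col4a1. In Twist1, Sox9 and Csf1r the stems were further apart with it. How often this holds over all genes was not counted.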

How the results depend on the processing

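No member that passed changed its sign under any of the 12 alternatives run for it, but its call often did. Most of these could say little on the sign. Other filters, no trend and the tested division alone leave the difference itself unchanged in this balanced layout. Leaving out a library only returns the difference within 1 matched pair of libraries. The suffix count of 1541 genes became 332 with a filter of 0.1 FPKM, 0 without a filter and 1 with the suffix alone (with 4937 and 1281 genes at an unadjusted p under 0.05 in these last alternatives). Leaving out a library, with the suffix alone as term, it was between 2 and 11. The stem count of 2623 genes became 0 without a filter and 34 with the stem alone, and lay between 0 and 16 without each library. The count of members, 1 in each comparison, became 0 without a filter, with the tested division alone and without each library in turn, and for the suffix also with the 0.1 filter, median-of-ratios scaling and no trend. Without each library in turn, in the fit with both terms, the suffix difference of Vim lay between -0.55 and -0.35 and the stem difference of Krt8 between 1.18 and 1.72, as values with no test. The suffix difference of Twist1 turned to -0.041 with upper-quartile scaling. Of 19 differences named from the other lists, 19 lost their call without a filter, 18 with the tested division alone 9 with the 0.1 filter, 3 with median-of-ratios scaling, 3 without the trend and 1 with 0.1 added in place of 1. The cause was not tested. Depth limits Cdh1, Epcam and, in stem CT26_CTL, Krt8.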
